A study of Homo sapiens with 24 samples.

Results

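The genes of ER-associated degradation (ERAD) were followed over 6 treatments of HepG2, an established human hepatoma cell line. The set was defined by gene symbol and holds 10 genes of the retrotranslocation complex and of the EDEM and Derlin families: HERPUD1, SYVN1, SEL1L, OS9, EDEM1, EDEM2, EDEM3, DERL1, DERL2 and DERL3. Counts for 9 of the 10 were found among the 18915 genes of the count table, and all 9 were among the 12685 genes tested. DERL3 was not analysed here. The control cells received the vehicle DMSO, and the other groups were given bortezomib at 50 nM, nelfinavir at 20 µM or ISRIB at 50 nM, or bortezomib together with either of the latter at the same concentrations, all for 10 h. Each of the 6 groups has 4 libraries. The libraries were made from bulk RNA with a kit that reads the 3′ ends of polyadenylated transcripts, so that the number of reads does not rise with transcript length. All cells came from 1 line. The study's methods describe the 4 libraries of a group as biological replicates, while the labels tie them to no separate culture or day, so p-values measure the spread between these libraries. In bulk RNA, a change in which cells remained after treatment and a change in RNA per cell cannot be told apart.

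ERAD removes misfolded proteins from the lumen and membrane of the ER. EDEM proteins trim mannose residues from glycoproteins that fail to fold, the lectin OS9 reads the trimmed glycan, and the substrate is handed to a membrane complex built around the ubiquitin ligase HRD1, the product of SYVN1, with its partner SEL1L. Derlins help to form the exit route, HERPUD1 organises the complex, and the substrate is ubiquitinated, pulled out by the ATPase VCP and degraded by the proteasome, which is the enzyme that bortezomib inhibits. Many ERAD genes are induced by the unfolded protein response, through the transcription factors ATF6 and XBP1 and, for HERPUD1, also through ATF4. Nelfinavir, an HIV protease inhibitor, raises signalling through eIF2α and ATF4. ISRIB acts on the translation factor eIF2B and relieves the effects of phosphorylated eIF2α.

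The level of HERPUD1 spanned the widest range over the groups among the 9 genes (17-fold between the highest and lowest mean). Of the 8 members with a promoter in the RefSeq table, only the window of HERPUD1 held one of the classical ER stress elements searched for. A link between element and range was not tested, and the window of EDEM1, with a 6.16-fold range, held none. The stretch of 250 bases before the start site of HERPUD1 is shown because it holds such an element. It is from RefSeq on GRCh38.p14, plus strand, chr16:56931892-56932141, written 5′ to 3′ with the matched letters in capitals.

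HERPUD1 promoter: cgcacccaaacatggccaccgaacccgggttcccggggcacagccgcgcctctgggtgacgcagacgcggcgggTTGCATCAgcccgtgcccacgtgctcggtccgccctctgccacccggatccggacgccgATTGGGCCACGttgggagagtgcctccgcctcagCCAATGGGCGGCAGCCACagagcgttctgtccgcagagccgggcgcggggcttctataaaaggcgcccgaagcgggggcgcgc

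The capitals mark, from left to right, the reverse strand of a C/EBP-ATF element at position -176 (TGATGNAA, the composite site bound by ATF4), an ERSE-II at -117 (ATTGGNCCACG) and, at -83, a stretch that matches the ER stress element ERSE without its last base (CCAATNNNNNNNNNCCAC). Positions count from the start site to the first base of the match. Windows of 250 bases before to 50 bases after the start were searched on both strands. An ERSE-II was found in 0.0541% of 35116 promoters, the C/EBP-ATF element in 3.62% and the shortened ERSE in 0.316%. ERSE-II and the C/EBP-ATF element occurred together in 3 promoters. The complete ERSE (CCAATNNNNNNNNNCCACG, in 0.0769% of promoters), the UPR element TGACGTGG (0.729%) and a heat shock element (GAANNTTCNNGAA, 0.49%) were in none of the 8 members.

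The hexamer CCACGT, which shares its first 5 bases with the end of ERSE-II, was found in 4 of the 8 members against 9.72% of all promoters. It was added to the search, like the shortened ERSE, after the promoters had been seen, and the ERSE-II of HERPUD1 itself ends in those 5 bases. The 4 of 8 therefore describes these promoters and is no test against the share of all promoters. SEL1L, EDEM1, EDEM2 and DERL2 do not hold the hexamer in their windows. HERPUD1 holds it at -160 and -111, the latter overlapping ERSE-II. The other members with the hexamer are shown with 20 bases on either side of it in capitals, on GRCh38.p14, to allow a comparison of their surroundings with that in HERPUD1 (SYVN1, minus strand, chr11:65134614-65134659; OS9, plus strand, chr12:57694001-57694046; EDEM3, minus strand, chr1:184754996-184755041).
SYVN1 at -120: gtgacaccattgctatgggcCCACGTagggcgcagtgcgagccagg
OS9 at -111: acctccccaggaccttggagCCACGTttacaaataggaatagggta
EDEM3 at -163: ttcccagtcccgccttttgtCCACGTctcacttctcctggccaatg
OS9 also holds the hexamer on the reverse strand at -86. A match is a run of letters and says nothing of whether a factor was bound in these cells. The study mapped where ATF4 sits on chromatin in bortezomib-treated HepG2 cells, and those sites were not looked up here.

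The totals of the 24 libraries ran from 5154533 to 6943164 counts. Levels are given as CPM, a gene's counts relative to its library's total, after scaling with edgeR's TMM factors (trimmed mean of M-values), from 0.786 to 1.24. Changes are log2 fold changes with their standard errors (SE) from edgeR's quasi-likelihood test over all 24 libraries, and a gene was called at a Benjamini-Hochberg adjusted p under 0.05 over all 12685 genes. All 8 hepatocyte and hepatoma markers looked up were present, among them ALB at group means from 2065 to 3323 CPM. Of 7 markers of other cell types, CD68 reached 5.21 CPM and COL1A1 1.11 CPM in any library, and the other 5 were not analysed here. Mitochondrially encoded genes took 33.8% of the counts with bortezomib against 21.5% in DMSO (group means, n = 4 each).

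Bortezomib was compared with DMSO to see how ERAD genes responded to proteasome inhibition. HERPUD1, SYVN1, OS9 and DERL1 rose, which is 4 of 9 members, where 27.6% of all tested genes were called higher, and 0 of 9 fell, where 25.8% were called lower. The median log2 fold change of the 9 members was 0.135 against 0.002 for all genes. These calls rest on the scaling: with library totals alone, the median change of all genes became -0.495. HERPUD1 was then the only member still called higher, near the 11.7% of all genes. SEL1L, EDEM2, EDEM3 and DERL2 were called lower, 4 of 9, near the 49.4% of all genes. With mitochondrially encoded genes left out of the counts, HERPUD1, SYVN1, OS9 and DERL1 were again the 4 members called, where 3260 of 12694 genes were called higher. TMM factors were kept in that setting, so it cannot show how the calls depend on the scaling. Nelfinavir alone raised HERPUD1, SYVN1, OS9 and EDEM3, again 4 of 9 against 10.4% of all genes called higher. ISRIB alone changed 0 of 9 members by edgeR or by DESeq2, with 0 of 9 at an unadjusted p under 0.05, and 0% of all genes were called by edgeR (703 of 12685 at an unadjusted p under 0.05, and 19 called by DESeq2).

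More members were called when either drug was added to bortezomib. With nelfinavir, 5 of 9 rose over bortezomib alone (HERPUD1, SYVN1, SEL1L, EDEM1 and DERL2), where 15.6% of all tested genes were called higher. With ISRIB, 6 of 9 rose, those 5 and EDEM3, where 6.91% of all genes were called higher. The median log2 fold change of the members was 0.669 with nelfinavir and 0.847 with ISRIB, against -0.017 and 0.007 for all genes, and 0 of 9 fell in either case. Both comparisons share the bortezomib libraries.

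The interaction, which is a drug's effect in cells given bortezomib minus its effect in cells without it, was positive and called for 4 of 9 members with nelfinavir, where 9.74% of all genes were. With ISRIB it was called for 6 of 9, where 2.93% of all genes were called in that direction. The co-treatments were also compared directly. HERPUD1 was higher with nelfinavir, 1 of 9 against 13.2% of all genes, and EDEM2 and EDEM3 were lower, 2 of 9 against 11.3% of all genes.

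HERPUD1 (GRCh37 chr16:56966054-56978776, plus strand, 8 exons in the canonical transcript) encodes an ER membrane protein with a ubiquitin-like domain that recruits and organises the HRD1 complex, and is itself short-lived. In DMSO its level was 24.8, 29.7, 34.9 and 31.7 CPM in replicates 1 to 4, and with ISRIB 26.4, 29.4, 23.02 and 24.9 CPM. With nelfinavir it was 49.8, 69.1, 34.5 and 59.1 CPM. With ISRIB the values lay within or just below those of DMSO, while in nelfinavir only replicate 3 fell within the range of DMSO. Bortezomib gave a narrow group of 77.4, 76.4, 84.7 and 76.3 CPM, all above every library of the other 3 groups.

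Nelfinavir on top of bortezomib took HERPUD1 to 497, 653, 338 and 277 CPM, and ISRIB on top of bortezomib to 315, 315, 175 and 337 CPM. Every co-treated library lay at more than the highest bortezomib value, and the spread within each co-treatment was wide. Group means were 441 ± 169 CPM with nelfinavir and 285 ± 74.2 CPM with ISRIB (SD, n = 4), which is 14.6 and 9.43 times the mean of DMSO (30.3 ± 4.24 CPM). The log2 fold change against bortezomib was 2.49 ± 0.20 (SE; adjusted p = 3.02e-11) with nelfinavir and 1.86 ± 0.20 (adjusted p = 3.52e-08) with ISRIB. Bortezomib alone raised it by 1.38 ± 0.21 (adjusted p = 1.32e-06) and nelfinavir alone by 0.81 ± 0.21 (adjusted p = 0.00444).

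Both drugs changed HERPUD1 more in the presence of bortezomib than in its absence. The interaction was 1.67 ± 0.29 for nelfinavir (adjusted p = 5.87e-05) and 2.08 ± 0.29 for ISRIB (adjusted p = 1.78e-05). These calls held in all 27 other settings tried for each. The co-treatments differed from each other by 0.63 ± 0.19 (adjusted p = 0.0133), and the groups overlapped. Without bortezomib-nelfinavir replicate 2, the library with the highest value, that difference was 0.43 with an adjusted p of 0.071, and with only the 2 groups in the model the adjusted p was 0.0973.

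SYVN1 (GRCh37 chr11:64889252-64902003, minus strand, 16 exons) encodes HRD1, the ubiquitin ligase of the complex. Its level was 28.5, 32.7, 29.1 and 30.4 CPM in DMSO, 29.5, 30.1, 25.6 and 30.8 CPM with ISRIB and 41.9, 49.7, 47.2 and 51.3 CPM with nelfinavir. Bortezomib gave 46.0, 35.3, 50.1 and 41.3 CPM. The single treatments with nelfinavir and with bortezomib therefore lay above all DMSO libraries and overlapped each other. The co-treatments were higher again, at 81.2, 85.4, 57.6 and 75.1 CPM with nelfinavir and 70.1, 82.3, 64.6 and 104 CPM with ISRIB, with no overlap with bortezomib alone.

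For SYVN1 the log2 fold change was 0.52 ± 0.14 for bortezomib (adjusted p = 0.00204) and 0.66 ± 0.13 for nelfinavir (adjusted p = 0.000446). With library totals alone the bortezomib value was 0.02. Against bortezomib it was 0.79 ± 0.14 with nelfinavir (adjusted p = 3.33e-05) and 0.89 ± 0.14 with ISRIB (adjusted p = 1.78e-05). Nelfinavir raised SYVN1 with and without bortezomib, and the interaction of 0.14 (95% interval -0.25 to 0.53, adjusted p = 0.665) missed the threshold, while that of ISRIB was 0.95 ± 0.19 (adjusted p = 0.00208). The last 500 bases of the SYVN1 transcript overlap those of MRPL49 on the opposite strand. Since it is not given whether counting used strand, reads of the 2 genes may have been mixed and the SYVN1 values are uncertain to that extent.

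SEL1L (GRCh37 chr14:81937891-82000197, minus strand, 21 exons) encodes the partner that stabilises HRD1 and receives substrates from the lectins. It stood at 71.4, 67.0, 67.3 and 71.9 CPM in DMSO, 61.9, 67.2, 64.5 and 62.3 CPM with ISRIB, 86.8, 70.5, 72.4 and 68.0 CPM with nelfinavir, and 70.8, 84.6, 74.4 and 75.2 CPM with bortezomib. None of the single drugs gave a call with TMM factors. In the co-treatments it rose to 162, 170, 188 and 184 CPM with nelfinavir and 188, 180, 182 and 170 CPM with ISRIB. The 8 co-treated libraries lay together and far above the other 16.

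The co-treatments raised SEL1L by 1.21 ± 0.09 with nelfinavir (SE; adjusted p = 2.27e-12) and 1.24 ± 0.09 with ISRIB (adjusted p = 4.61e-12), which ranked it 20 and 4 among all tested genes by p. The direct difference between the co-treatments was -0.03, with a 95% interval from -0.20 to 0.14. Alone, nelfinavir gave 0.10 (95% interval -0.08 to 0.28) and ISRIB -0.12 (-0.30 to 0.06). The interactions were 1.11 ± 0.12 for nelfinavir (adjusted p = 3.31e-08) and 1.36 ± 0.12 for ISRIB (adjusted p = 6.55e-09, rank 3 of all genes). For bortezomib alone the log2 fold change was 0.14 ± 0.09 (adjusted p = 0.2) with TMM factors and -0.36 (adjusted p = 0.00156) with library totals alone, so its direction depends on the scaling.

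OS9 (GRCh37 chr12:58087624-58122125, plus strand, 15 exons) encodes the lectin that binds trimmed glycans and delivers substrates to SEL1L. It had the highest CPM of the 9 members in DMSO, 86.2 to 100 CPM, against 76.7 to 86.9 CPM with ISRIB and 105 to 128 CPM with nelfinavir. With bortezomib it was 134 to 164 CPM, with bortezomib and nelfinavir 170 to 176 CPM, and with bortezomib and ISRIB 139 to 184 CPM. The bortezomib libraries lay above all DMSO and nelfinavir libraries. It rose by 0.68 ± 0.09 with bortezomib (adjusted p = 1.96e-07) and by 0.31 ± 0.09 with nelfinavir (adjusted p = 0.0153).

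The nelfinavir call for OS9 was lost without DMSO replicate 3 or 4 or nelfinavir replicate 1 or 2, where the value ran from 0.26 to 0.28 and the adjusted p from 0.0533 to 0.0744. The bortezomib call was lost with library totals alone (0.18, adjusted p = 0.133). Against bortezomib, OS9 differed by 0.22 ± 0.09 with nelfinavir (adjusted p = 0.0737), a value that was called with DESeq2 (adjusted p = 0.0481), with thinned counts (0.03), and without bortezomib replicate 1 (0.0251) or bortezomib-nelfinavir replicate 1 (0.0459) or 2 (0.0379). With ISRIB it differed by 0.18 (95% interval -0.01 to 0.37, adjusted p = 0.211). Its interaction with ISRIB, 0.36 (adjusted p = 0.113), was called only without bortezomib-ISRIB replicate 4 among the libraries left out (0.44, adjusted p = 0.0417).

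**Figure D1:**
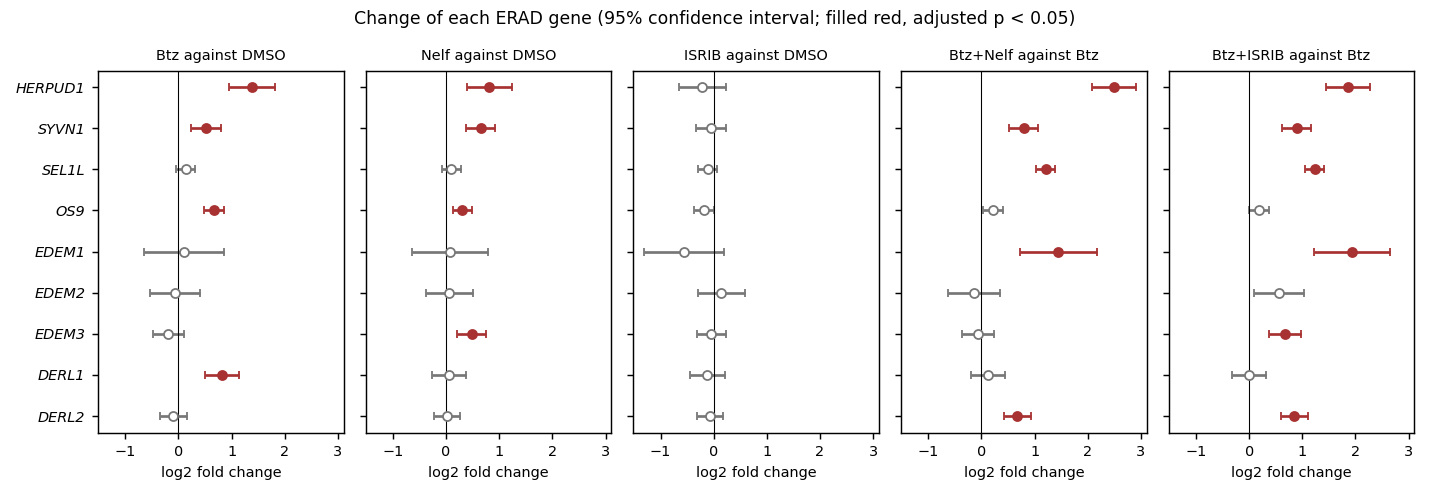
Log2 fold change (x axis) of each ERAD gene in 5 comparisons, with its 95% confidence interval; filled red points have an adjusted p under 0.05 and open grey points do not. HERPUD1 has the largest point in the 2 single-drug comparisons with calls, SEL1L has a narrow interval far from 0 only in the co-treatments, and the intervals of EDEM1 are the widest.

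The 3 EDEM genes encode mannosidases or mannosidase-like proteins that mark misfolded glycoproteins. EDEM1 (GRCh37 chr3:5229331-5261643, plus strand, 12 exons) was low and variable, with 20 to 272 counts per library. It was 7.90, 6.51, 11.6 and 14.1 CPM in DMSO, 9.21, 9.58, 2.82 and 5.42 CPM with ISRIB, and 10.6, 15.5, 5.97 and 10.0 CPM with nelfinavir. Bortezomib gave 10.9, 9.50, 10.4 and 12.5 CPM, within the range of DMSO. The co-treatments reached 30.4, 51.1, 15.7 and 21.4 CPM with nelfinavir and 46.8, 34.1, 18.5 and 67.1 CPM with ISRIB, every library above bortezomib alone.

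EDEM1 rose over bortezomib by 1.45 ± 0.35 with nelfinavir (adjusted p = 0.00223) and by 1.94 ± 0.35 with ISRIB (adjusted p = 0.000215), with coefficients of variation of 52.3% and 49.4% within those groups. The direct difference between them was -0.49 (95% interval -1.14 to 0.16). The interaction with ISRIB was 2.50 ± 0.51 (adjusted p = 0.00208) and held in all 27 other settings. That with nelfinavir was 1.38 ± 0.50 with an adjusted p of 0.0482, near the threshold. It was lost with DESeq2 (0.0809), with upper-quartile factors (0.0507) and without any 1 of 9 libraries (DMSO replicates 3 and 4, nelfinavir replicates 1, 3 and 4, bortezomib replicates 1, 2 and 3, and bortezomib-nelfinavir replicate 2), where it ran from 1.04 to 1.42 with an adjusted p from 0.0556 to 0.123.

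EDEM3 (GRCh37 chr1:184659371-184724041, minus strand, 20 exons) was 24.9, 19.5, 23.8 and 25 CPM in DMSO, 20.6, 24.4, 23.3 and 22.2 CPM with ISRIB and 23.7, 19.0, 17.95 and 20.96 CPM with bortezomib. These 3 groups overlapped. It was higher with nelfinavir alone, at 32.5, 34.7, 31.5 and 31.3 CPM, and with bortezomib and ISRIB, at 28.3, 40.4, 30.5 and 30.6 CPM. With bortezomib and nelfinavir it was 22.4, 15.7, 16.7 and 22.9 CPM, within the range of bortezomib or below it.

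The rise of EDEM3 with nelfinavir was 0.48 ± 0.14 (adjusted p = 0.0101) and was not called without DMSO replicate 2 (0.39, adjusted p = 0.0687). In the presence of bortezomib, nelfinavir gave -0.07 (95% interval -0.37 to 0.24), and the interaction of -0.55 ± 0.20 had an adjusted p of 0.0527. The interaction was called lower with DESeq2 (0.0432), upper-quartile factors (0.0463), edgeR's default filter (0.0468) and without bortezomib-nelfinavir replicate 4 (-0.60, adjusted p = 0.0404). ISRIB on top of bortezomib raised EDEM3 by 0.67 ± 0.15 (adjusted p = 0.00173). The co-treatments did not overlap and differed by -0.74 ± 0.15 (nelfinavir minus ISRIB, adjusted p = 0.000268), which held in all 19 other settings.

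The interaction of EDEM3 with ISRIB was 0.72 ± 0.20 (adjusted p = 0.0313). It was lost with library totals alone (0.0601), with no filter (0.0529) and without any 1 of 8 libraries (DMSO replicates 1, 3 and 4, ISRIB replicates 1 and 4, bortezomib replicates 2 and 3, and bortezomib-ISRIB replicate 2), where it ran from 0.59 to 0.71 with an adjusted p from 0.0559 to 0.0946. EDEM2 (GRCh37 chr20:33703167-33735139, minus strand, 11 exons) stayed between 9.23 and 33.3 CPM over all 24 libraries and gave no call against DMSO or bortezomib with TMM factors. Its value against bortezomib was 0.56 with ISRIB (95% interval 0.09 to 1.03, adjusted p = 0.114) and -0.14 with nelfinavir (-0.63 to 0.34). The difference between the co-treatments was -0.70 ± 0.23 (adjusted p = 0.0255), with overlapping groups. It was lost without bortezomib-ISRIB replicate 4 (-0.38, adjusted p = 0.24), without bortezomib-nelfinavir replicate 3 or 4 (-0.54 and -0.53, 0.118 and 0.114), and with only the 2 groups in the model (0.0981).

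The Derlins are multi-pass membrane proteins of the exit route. DERL2 (GRCh37 chr17:5374574-5390131, minus strand, 7 exons) was 30.6, 32.4, 33.5 and 28.7 CPM in DMSO and 34.7, 27.9, 24.5 and 29.6 CPM with bortezomib. It rose to 41.0, 55.0, 46.2 and 43.5 CPM with nelfinavir added and to 51.9, 52.8, 45.9 and 59.5 CPM with ISRIB added, with no overlap with bortezomib alone. Against bortezomib this was 0.67 ± 0.13 with nelfinavir (adjusted p = 0.00011) and 0.85 ± 0.13 with ISRIB (adjusted p = 1.08e-05). Neither drug alone gave a call for DERL2 (0.03, 95% interval -0.22 to 0.27, for nelfinavir, and -0.07, -0.32 to 0.17, for ISRIB). The interactions were 0.64 ± 0.17 (adjusted p = 0.00726) and 0.92 ± 0.17 (adjusted p = 0.000891), called in all 27 other settings each.

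DERL1 was called higher with bortezomib and was not called over it in either co-treatment. It was 40.7, 40.4, 48.3 and 40.3 CPM in DMSO and 73.1, 68.9, 67.8 and 89.5 CPM with bortezomib, a change of 0.82 ± 0.16 (adjusted p = 4.77e-05). With library totals alone this was 0.32 (adjusted p = 0.0655). Adding nelfinavir gave 97.9, 96.5, 69.8 and 62.1 CPM and adding ISRIB gave 80.6, 84.8, 44.2 and 90.6 CPM, both overlapping bortezomib. The changes against bortezomib were 0.12 (95% interval -0.20 to 0.44) and 0.00 (-0.32 to 0.32), so that a rise of the size seen for DERL2 with ISRIB lay outside the intervals.

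**Figure D2:**
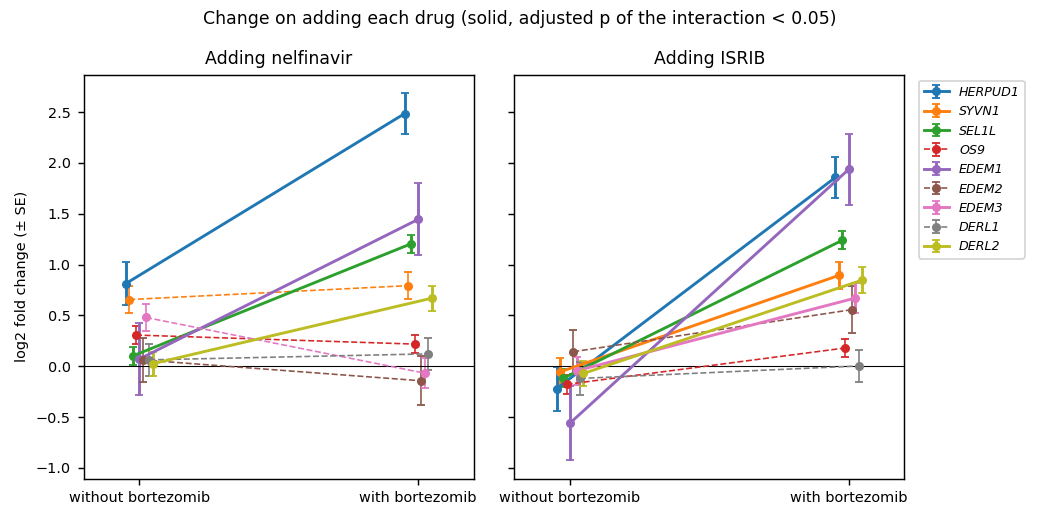
Log2 fold change (y axis, with SE) on adding nelfinavir (left) or ISRIB (right) without and with bortezomib, 1 colour for each ERAD gene; solid lines have an adjusted p of the interaction under 0.05. With ISRIB all 9 genes start within 0.56 of 0 and lie higher with bortezomib, 6 of them with a solid line. With nelfinavir SYVN1 and OS9 run nearly level and EDEM3 falls from 0.48 to -0.07 (dashed).

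The other genes of the pathway were taken from 4 lists of 38 genes in all, and all 38 were tested. With bortezomib 20 rose, where 27.6% of all genes were called higher, and 6 fell, a smaller share than the 25.8% of all genes called lower. With library totals alone the split turned to 11 higher and 16 lower, where 11.7% of all genes were called higher and 49.4% lower. With nelfinavir 9 rose against 10.4% of all genes, and 3 fell, near the 8.84% of all genes. With ISRIB 0 of 38 were called by edgeR or DESeq2, and 3 of 38 had an unadjusted p under 0.05 in edgeR. Over bortezomib with nelfinavir, 17 rose against 15.6% of all genes and 3 fell, a smaller share than the 13.4% of all genes. Over bortezomib with ISRIB, 11 rose against 6.91% and 3 fell against 5.34%, the latter near the share of all genes. Their median log2 fold changes in these 2 comparisons, 0.19 and 0.05, were smaller than those of the 9 members. The interaction with nelfinavir was called higher for 9 and lower for 8 of the 38, against 9.74% and 10% of all genes. With ISRIB it was called higher for 7 against 2.93%, and lower for 1, near the 1.89% of all genes.

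Extraction and deglycosylation genes moved with bortezomib, 9 of 13 higher against 27.6% of all genes, and 1 lower against 25.8%, median 0.61. With library totals alone 5 were called higher and 1 lower, where 11.7% of all genes were called higher and 49.4% lower. NPLOC4, a cofactor of VCP, rose by 2.09 ± 0.09 (adjusted p = 5.03e-19), UBXN4 by 1.46 ± 0.08, UFD1L by 1.16 ± 0.09 and VCP itself by 0.85 ± 0.07. SVIP, an inhibitor of VCP, fell by 1.79 ± 0.13 on the log2 scale (adjusted p = 2.91e-13). Over bortezomib, 4 of the 13 rose and 2 fell with nelfinavir, where 15.6% and 13.4% of all genes did, so that the share that fell was near that of all genes. VCP (0.55 ± 0.07), the deubiquitinase gene YOD1 (1.06 ± 0.21), UBXN6 (0.54 ± 0.12) and UFD1L (0.23 ± 0.09) were the 4 that rose. With ISRIB 3 rose and 2 fell, against 6.91% and 5.34% of all genes, and those higher were YOD1 (0.76 ± 0.21), SVIP (0.48 ± 0.14) and VCP (0.25 ± 0.07). With library totals alone YOD1 was the only one of the 13 still called higher there, near the 5.12% of all genes. NPLOC4 and FAF2 were the genes that fell in both co-treatments (-0.29 and -0.34 with nelfinavir, -0.32 and -0.32 with ISRIB), and the medians of the list were -0.08 in each.

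Among 8 partners of the HRD1 complex, 3 rose over bortezomib in both co-treatments, where 15.6% of all genes were called higher with nelfinavir and 6.91% with ISRIB: UBE2J1, a ubiquitin-conjugating enzyme of the ER membrane (0.97 ± 0.13 and 0.43 ± 0.14), VIMP, a selenoprotein that links VCP to the Derlins (0.96 ± 0.09 and 0.77 ± 0.09), and SELK, another selenoprotein of the complex (0.86 ± 0.09 and 0.67 ± 0.09). The call of UBE2J1 with ISRIB was lost with library totals alone. FAM8A1, HERPUD2, AUP1, UBE2G2 and TMUB1 were not called in these 2 comparisons. HERPUD2, the paralogue of HERPUD1, stood at -0.28 ± 0.18 with nelfinavir and -0.45 ± 0.18 with ISRIB there (adjusted p = 0.237 and 0.0952), after a rise of 0.91 ± 0.18 with bortezomib (adjusted p = 5.04e-05).

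In recognition and lectins, 6 of 9 rose over bortezomib with nelfinavir, against 15.6% of all genes, and 4 with ISRIB, against 6.91%. ERLEC1, the other lectin of the OS9 kind, rose by 0.56 ± 0.09 (adjusted p = 1.66e-05) and 0.64 ± 0.09 (adjusted p = 6.79e-06), and CALR, the chaperone calreticulin, by 0.69 ± 0.08 and 0.97 ± 0.08. Of 8 other ER ubiquitin ligases, 4 rose and 1 fell over bortezomib with nelfinavir, against 15.6% and 13.4% of all genes. With ISRIB 1 rose and 1 fell, against 6.91% and 5.34%, which for 8 genes is within 1 gene of those shares. RNF103 was the one that rose in both (0.88 ± 0.12 and 0.49 ± 0.12), and TMEM129 the one that fell (-0.57 ± 0.22 and -0.85 ± 0.22). MARCH6, a ligase of the ER and nuclear envelope, rose by 1.17 ± 0.09 with bortezomib.

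Reference genes of the unfolded protein response were set beside the members. Of 11 targets of ATF6 and XBP1, 9 rose and 1 fell over bortezomib in each co-treatment, where 15.6% of all genes rose and 13.4% fell with nelfinavir and 6.91% and 5.34% with ISRIB, with medians of 1.37 with nelfinavir and 1.15 with ISRIB. HSPA5, which encodes the ER chaperone BiP, rose by 2.65 ± 0.10 and 2.23 ± 0.10, and SDF2L1, an ER cochaperone, by 2.11 ± 0.14 and 1.87 ± 0.14. XBP1 itself was the gene that fell (-0.39 ± 0.11 and -0.89 ± 0.11). These counts do not separate spliced from unspliced XBP1 transcripts, and the study's PCR found the spliced proportion raised in both co-treatments. With bortezomib alone 5 of the 11 rose and 2 fell, against 27.6% and 25.8% of all genes. With library totals alone 2 rose and 6 fell, near the 11.7% and 49.4% of all genes in that setting.

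The ATF4 reference genes ASNS, TRIB3, DDIT3 and ATF4 took another course, while CHAC1 was not tested. All 4 rose with bortezomib (median 2.42, against 27.6% of all genes called higher) and with nelfinavir (median 2.44, against 10.4%), and all 4 rose again over bortezomib with nelfinavir (median 0.85, against 15.6%). With ISRIB on top of bortezomib the median was -0.17. There 0 of 4 rose and TRIB3 fell (-0.47 ± 0.10, adjusted p = 0.00177), against 6.91% and 5.34% of all genes. For 4 genes these counts are within 1 gene of those shares. Set beside these values, HERPUD1 was called higher in each of the comparisons with a drug except ISRIB alone, SEL1L, EDEM1 and DERL2 were called in the co-treatments and, with TMM factors, in no single treatment, and OS9 and DERL1 were called with bortezomib and not over it.

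Across the 24 libraries, 21 of the 36 pairs of members had a Pearson correlation of log2 CPM over 0.5, with a median of 0.67. The libraries share treatments, so this describes the pattern over 6 groups. The 15 pairs below 0.5 were those of EDEM2 and EDEM3 with each other and with the rest. SEL1L was most like HSPA5 (0.984), DNAJB11 (0.981) and HYOU1 (0.956) over the 24 libraries, all 3 of them ER chaperones or cochaperones. HERPUD1 was most like VIMP (0.977), EIF2AK3 (0.97) and CDR2 (0.97), and SYVN1 like VIMP (0.939), HERPUD1 (0.931) and IBTK (0.925).

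The genes most like DERL2 were MANF (0.914), TMSB10 (0.891) and MAGT1 (0.886), and those most like EDEM1 were CAMTA1 (0.924), TMED5 (0.914) and CD164 (0.913). Of all the genes named as most like a member, only CAMTA1, HYOU1 and HERPUD1 are among the 19 gene symbols whose promoter window holds an ERSE-II. CAMTA1 was close to EDEM1 and HYOU1 to SEL1L, whose own windows hold none. A link between the element and the correlations was not tested. DERL1 was most like TMEM87A (0.968), WDR26 (0.954) and GSR (0.941), and OS9 like MAP4, TAX1BP1 and OSBPL2 (0.967 each). For EDEM3 the closest were CKAP4 (0.759), KDELR3 (0.758) and WFS1 (0.758), and for EDEM2 PAQR9 (0.739), CHST15 (0.735) and TMEM138 (0.714).

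Within groups the order was another. After the group means were taken out, the median correlation over the 36 pairs was 0.065, with 8 pairs over 0.5. HERPUD1 ran with DERL1 (0.81), EDEM1 (0.796), EDEM2 (0.583) and SYVN1 (0.54), whereas SYVN1 and SEL1L ran opposite (-0.675). Bortezomib-ISRIB replicate 3 was low in HERPUD1, EDEM1 and DERL1, with 32.6% of counts on mitochondrially encoded genes, the least of its group, and replicate 4 was high in EDEM1, EDEM2 and SYVN1, with 40.2%, the most of its group. Bortezomib-nelfinavir replicates 1 and 2 were above replicates 3 and 4 in HERPUD1, DERL1 and EDEM2, with 28.5% and 29.6% against 24.9% and 25.6%.

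The within-group correlation with the mitochondrial share was 0.744 for SYVN1, 0.658 for EDEM2, 0.61 for DERL1 and 0.552 for HERPUD1, and -0.62 for SEL1L and -0.587 for OS9 (24 libraries each). Each library's departure from its group's mean share was then added to the model as a covariate, a choice made after the data were seen. Every member called above in the co-treatments against bortezomib was still called, and OS9 with nelfinavir passed the threshold too (0.22, adjusted p = 0.0451). Such a covariate leaves out the differences in share between groups, so it cannot adjust the comparisons for them. Group means were 33.8% with bortezomib, 27.2% with nelfinavir added and 36.1% with ISRIB added. The part of the mitochondrial share in the differences between groups was not tested. Outside the set, 298 of 12685 genes had a within-group correlation over 0.8 with HERPUD1.

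**Figure D3:**
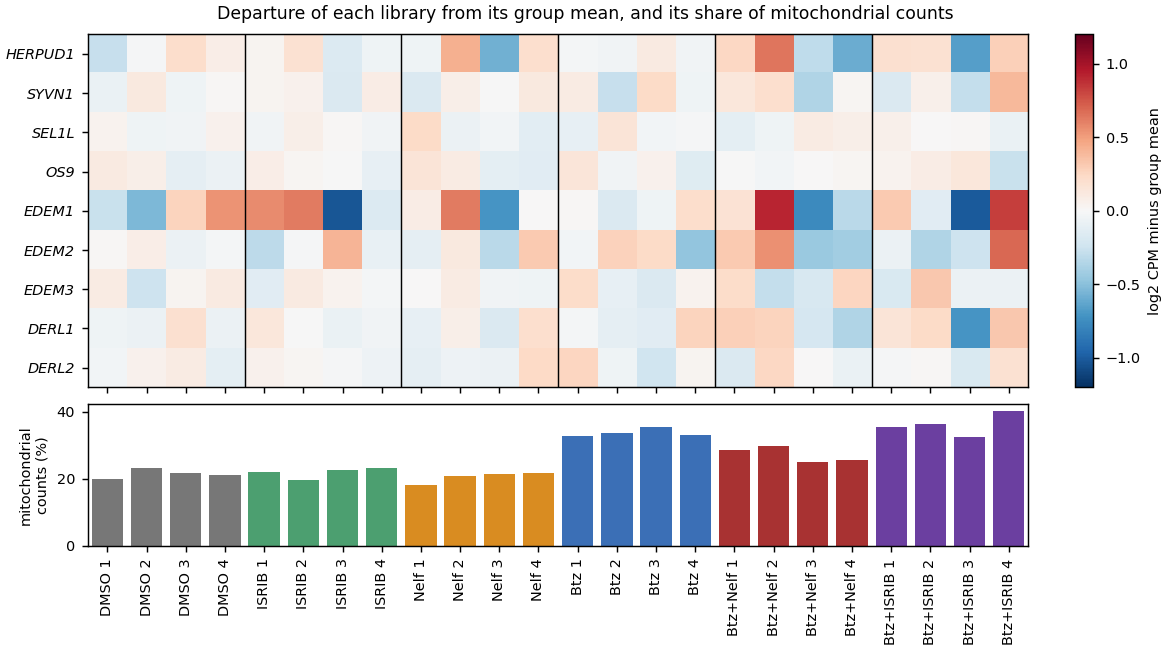
Log2 CPM of each ERAD gene minus its group mean in each of the 24 libraries (heat map, red above and blue below the mean), over the percentage of counts from mitochondrially encoded genes in the same libraries (bars, %). HERPUD1, EDEM1 and DERL1 are all blue in bortezomib-ISRIB replicate 3, where the share is 32.6%, while the rows of SEL1L and OS9 stay pale.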

How the data were processed

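Each library gave 3′ mRNA-Seq counts of HepG2 cells. As deposited, the values are raw read counts per gene. The authors trimmed reads with cutadapt 2.8, aligned them to hg19 with STAR in an nf-core workflow and counted them on Ensembl genes. Which program counted the reads, whether by strand, and whether molecular identifiers were used is not given in the sources used here. Reads may therefore include copies of the same molecule. Counts on genes were 5154533 to 6943164 per library.

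The filterByExpr function selected genes (at least 5 counts, 25 in total), and libraries were scaled with TMM factors in edgeR 4.0.16 (R 4.3.3). All 24 libraries entered 1 quasi-likelihood model with a coefficient per group, after a test on simulated data, and 12685 genes were adjusted together. SE and 95% intervals come from this model. Log2 CPM for correlations used a prior count of 2. No pair of replicates agreed within sampling noise (lowest chi-square per degree of freedom 2.14). The highest values were 22.03 for bortezomib-ISRIB replicates 3 and 4 and 20.31 for bortezomib-nelfinavir replicates 2 and 3. The groups outside the co-treatments reached at most 11.67. Replicates 1 and 2 were closer, at 3.292 in bortezomib-ISRIB and 3.989 in bortezomib-nelfinavir. Coordinates are from GENCODE on GRCh37 and promoters from RefSeq. Alternatives used DESeq2 1.42.0, other scaling and filters, a replicate block, thinned counts and each library left out.

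The members, the lists and the tests were chosen with earlier results of these data known. Named genes are the members, genes of the 6 lists, and the 3 genes most correlated with each member. Near copies of the last 500 transcript bases were sought with BLAST 2.17.0 (at least 80 bases, 97% identity), which found MRPL49 for SYVN1 and a long noncoding RNA without counts on the opposite strand of OS9.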

Additional observations from a re-analysis of the deposited data

Results flagged for a closer look

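In 4 of 54 sets of 4 libraries, 1 library stood apart from the other 3 by Dixon's test, where chance alone marks about 1 in 20 sets. HERPUD1 was at 84.7 CPM in bortezomib replicate 3, against 77.4 CPM in the next library, and at 175 CPM in bortezomib-ISRIB replicate 3, against 315 CPM in the next. DERL1 was at 48.3 CPM in DMSO replicate 3 and DERL2 at 37.5 CPM in nelfinavir replicate 4.

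The change on adding a drug differed between cells with and without bortezomib in 10 cases, by the interaction in edgeR's quasi-likelihood model. For nelfinavir the log2 differences of the change were 1.67 for HERPUD1, 1.38 for EDEM1, 1.11 for SEL1L and 0.64 for DERL2. For ISRIB they were 2.50 for EDEM1, 2.08 for HERPUD1, 1.36 for SEL1L, 0.95 for SYVN1, 0.92 for DERL2 and 0.72 for EDEM3. Those of EDEM1 with nelfinavir and of EDEM3 with ISRIB were lost in some of the other settings, as given above.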

How the results depend on the processing

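Over 9 members and 8 comparisons, 26 calls were lost and 5 gained in 720 values with 1 library left out. Under other settings 9 were lost and 11 gained in 792 values. SEL1L with bortezomib is not among these: it changed sign and became called lower with library totals alone. The scaling had the largest part. With library totals alone, members called higher with bortezomib fell to 1 of 9, near the 11.7% of all genes. Members called lower came to 4 of 9, near the 49.4% of all genes, and SEL1L turned to -0.36. With only the 2 groups compared, the direct comparison of the co-treatments called 1 member, 0 higher and 1 lower. In that setting 1740 of 11216 genes were called, 985 of them higher, so for 9 genes these counts are near the shares of all genes. Left-out libraries gave 0 to 1 members called higher and 1 to 2 called lower in that comparison. The main model called 13.2% of all genes higher and 11.3% lower there. The nelfinavir interaction called 0 members lower in edgeR's main model and 0 to 1 with a library left out. It called 1, EDEM3, with DESeq2, upper-quartile factors, edgeR's default filter and the mitochondrial share within groups as a covariate. Of all genes, 10% were called lower in the main model and 10.9% with DESeq2, so for 9 genes these counts are near those shares. Same-numbered libraries were not paired by the labels, and 10 of 60 such pairs correlated above 0.1, against 7 of 180 others. The replicate block raised the members called with nelfinavir over bortezomib from 5 to 6 by OS9 (0.22, adjusted p = 0.0407) and changed no other call. With it 1999 of 12685 genes were called higher in that comparison. EDEM1 and EDEM2 had the fewest counts, 20 to 272 and 47 to 156 per library, and the widest intervals.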

Other observations

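CHST15 and PAQR9 were the genes closest to EDEM2 with correlations below 0.75, whereas 7 of the 9 members had a closest gene above 0.9. Within groups, HERPUD1 ran most closely with OAT (0.957), ARCN1 (0.957) and APEX1 (0.948), none of which is among the 3 genes closest to it over all 24 libraries, and EDEM1 with CAMTA1 (0.903) and CD164 (0.901), which are.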
